A study of Oreochromis niloticus with 8 samples.

Results

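The genes described here encode the extracellular matrix of the Nile tilapia (Oreochromis niloticus) midbrain, the integrin receptors that bind it, and the enzymes that build and cut it. They were chosen by gene name: collagens, laminins, integrins, matrix metalloproteinases and their inhibitors, ADAM and ADAMTS proteases, collagen-modifying enzymes, and a set of proteoglycans and matrix glycoproteins. The name pattern matched 101 identifiers, and 83 of them had a mean of at least 1 TPM, a transcript level scaled by gene length and library total, in cold-exposed or in control midbrains. Those 83 stood among 18863 genes that met the same minimum and 29533 genes in all. Of the 83, 7 met the minimum in the control group alone and 0 in the cold group alone. Another 18 matched identifiers lay under it, among them lox, lum, col5a3, col10a1 and mmp13. For 3 of the 83 the symbol begins like a family name although the protein is a different one: col4a3bp, a ceramide transfer protein, itgb1bp1, a cytoplasmic protein that binds an integrin tail, and itgbl1, which resembles integrin beta chains.

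The study sequenced polyadenylated RNA from midbrains of 4 cold-exposed fish samples and 4 kept at normothermy, the controls. Nothing in the labels names an allele, transgene or drug in either group. The temperatures, the length of exposure, the age and sex of the fish and whether a library came from a single animal are not given in the labels, so the p-values reflect library-to-library spread, which may be technical. In bulk tissue, fewer cells of a type and less RNA per cell cannot be told apart.

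Collagens and laminins are secreted as trimers and assemble outside the cell, collagens into fibrils or networks and laminins into basement membranes, the sheets that in brain line the blood vessels and the surface under the meninges. Integrins are pairs of an alpha and a beta chain that span the membrane and tie these proteins to the actin skeleton. Between neurons the brain has little fibrillar collagen and a matrix of hyaluronan, link proteins, chondroitin sulphate proteoglycans and tenascin-R, which surrounds synapses and is trimmed by metalloproteinases and ADAMTS enzymes.

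A principal component analysis of all tested genes separated cold from control libraries on the first component, which held 43.4% of the variance. The second, with 16.9%, set the library cold 2 and the library control 4 apart from the other 6, so results that depend on them are given with and without both. Each library had 17842 to 18506 genes at or above 1 TPM. TPM are relative values with the same sum in every library, and read depth is unknown. The median log2 change over all genes tested was -0.09, and it was -0.00 after rescaling the libraries by the median of ratios.

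Changes are log2 differences, cold minus control, of TPM + 1, and calls were made with limma, at a Benjamini-Hochberg adjusted p under 0.05 over all 18863 genes. Of the 83 genes, 4 were called higher in cold and 16 lower. That is 24.1% of the members, where 36.7% of all genes tested were called. The higher calls made up 4.82% of the members against 13.0% of all genes, and the lower calls 19.3% against 23.6%. Values of the groups did not overlap for 20 members, which is 24.1%, where 36.9% of all genes tested had no overlap. After median-of-ratios scaling 5 members were called higher and 15 lower, or 6.02% and 18.1%, where the shares of all genes were 18.5% and 16.8%. The log2 change was negative for 60 of the 83, or 72.3%, where 60.1% of all genes tested had a negative change. The median log2 change of the members was -0.16, or -0.08 after scaling. For the 7 members that met the minimum in controls alone, the minimum itself favoured a lower level in cold. By count, then, these families were called no more often than genes in general, and the calls were spread unevenly among the roles, a difference that was given no test.

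**Figure D1:**
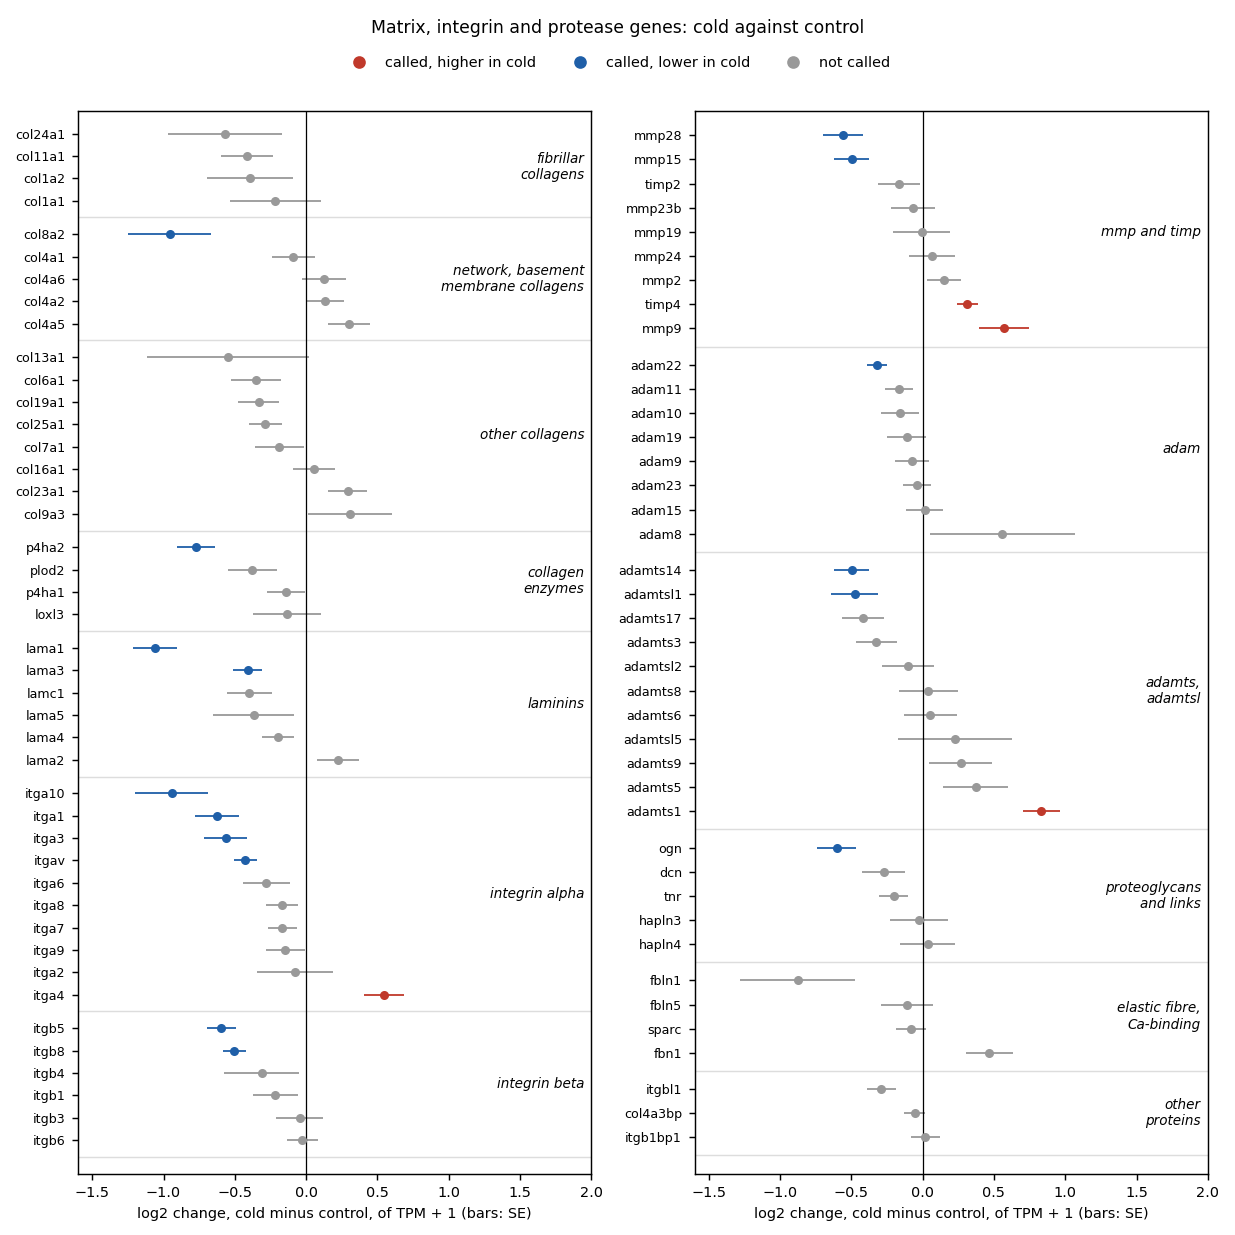
Log2 change (cold minus control) of TPM + 1 for each of the 83 genes, grouped by role, with dots for the estimate and bars for its standard error in limma (4 libraries a group). The 6 integrin genes called lower stand beside the single collagen called lower, col8a2, and the 4 genes called higher are itga4, timp4, mmp9 and adamts1.

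The levels themselves spanned a wide range. TPM is scaled by gene length, so levels can be compared between genes. Only 3 members averaged at least 100 TPM over the 8 libraries, 29 reached 10 TPM and 41 stayed under 5 TPM. The 5 most abundant were sparc, which encodes a calcium- and collagen-binding glycoprotein, timp2, adam23, adam22 and hapln4. Together they held 41.1% to 45.4% of the summed TPM of all members in each library. Most fibrillar collagens, by contrast, lay at a few TPM.

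Integrins held the largest share of the lower calls. Of 16 integrin chains tested, 6 fell in cold and 1 rose, and 15 of the 16 had a negative log2 change, with a median of -0.25, or -0.16 after scaling. Their summed level, with itga11 under the minimum included, was 213, 181, 221 and 219 TPM in cold midbrains, against 269, 276, 296 and 296 TPM in controls. Every cold sum lay under every control sum. The most abundant chains, itgb5 and itgav, weigh most in these sums and are described below. The median change of all genes tested was -0.09, and 60.1% of them had a negative change. Of the integrins 37.5% were called lower and 6.25% higher, and the same after scaling. For them and the role groups below, the shares of all genes tested were 23.6% lower and 13.0% higher, or 16.8% and 18.5% after scaling.

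The av integrins recognise the RGD motif of ligands such as vitronectin and of the latent form of TGF-beta, and their chains itgb5, itgav and itgb8 were the most abundant of the called integrins. The alpha chain itgav measured 50.8, 43.0, 55.0 and 54.9 TPM in cold, against 64.5, 71.6, 67.0 and 70.7 TPM in control. No cold library reached the lowest control library. The mean was 50.9 ± 5.63 TPM in cold and 68.5 ± 3.31 TPM in control (SD, n = 4 each), a log2 change of -0.43 ± 0.08 (SE) with an adjusted p = 0.0043 in limma.

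A partner of itgav, itgb5, measured 64.8, 47.1, 64.6 and 60.3 TPM in cold, against 86.0, 83.2, 92.9 and 94.9 TPM in control, with no overlap (log2 change -0.59 ± 0.10, limma adjusted p = 0.0023). The library cold 2 was the lowest of the 8, and the other 3 cold libraries also lay below all controls. Another partner, itgb8, which in mammals takes part in the release of active TGF-beta, stood at 17.7, 17.8, 19.3 and 18.3 TPM in cold, against 24.6, 23.4, 29.2 and 28.5 TPM in control. The cold values were tightly grouped below the controls, and the log2 change was -0.50 ± 0.08 (limma adjusted p = 0.00173). The other 4 beta chains tested, itgb1, itgb3, itgb4 and itgb6, were not called. The ratio of itgb5 to itgav was 1.10 to 1.27 in cold and 1.16 to 1.39 in control, with means of 1.16 and 1.31. That of itgb8 to itgav was 0.333 to 0.414 in cold and 0.326 to 0.435 in control. Both ratios overlapped between the groups, that of itgb5 to itgav through control 2 alone, and neither was tested.

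The collagen receptor chain itga1 was at 4.13, 4.01, 6.29 and 6.23 TPM in cold, against 7.67, 7.47, 8.80 and 9.57 TPM in control, with no overlap (log2 change -0.62 ± 0.15, limma adjusted p = 0.0127). Without control 4 and cold 2 together this call was lost, at an adjusted p of 0.0635. A related collagen receptor chain, itga10, best known from cartilage, was at 1.29, 1.86, 2.72 and 4.13 TPM in cold, against 7.09, 5.40, 5.79 and 3.85 TPM in control. Here cold 4 lay above control 4, so the groups overlapped, and the log2 change of -0.94 ± 0.25 (limma adjusted p = 0.0187) lost its call without control 1, at 0.0513. The laminin receptor chain itga3 was at 10.7, 16.0, 10.9 and 9.79 TPM in cold, against 18.8, 18.1, 19.9 and 14.4 TPM in control. The overlap came from cold 2 and control 4, and the log2 change of -0.56 ± 0.15 (limma adjusted p = 0.0187) lost its call without control 3, at 0.0526. Without control 4 and cold 2 together the adjusted p for itga3 was 0.00119.

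A single alpha chain rose. The gene itga4, whose product pairs with beta 1 on leukocytes and other cells and binds fibronectin and VCAM1, measured 2.51, 2.26, 2.89 and 3.70 TPM in cold, against 1.43, 1.66, 1.67 and 1.68 TPM in control. All cold libraries lay above all controls, at a low level in both groups (log2 change 0.55 ± 0.14, limma adjusted p = 0.0146). The common beta chain itgb1, with which most alpha chains pair, was at 30.5, 18.6, 28.6 and 30.9 TPM in cold, against 27.6, 32.1, 35.7 and 29.6 TPM in control. Its groups overlapped and it was not called (log2 change -0.22 ± 0.16, limma adjusted p = 0.314), the lowest value being that of cold 2. The other 8 uncalled chains had log2 changes of -0.31 to -0.03: itga2, itga6, itga7, itga8, itga9, itgb3, itgb4 and itgb6. Among them itga7, a laminin receptor chain, was the most abundant, with 10.8 ± 1.26 TPM in cold and 12.2 ± 1.20 TPM in control.

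**Figure D2:**
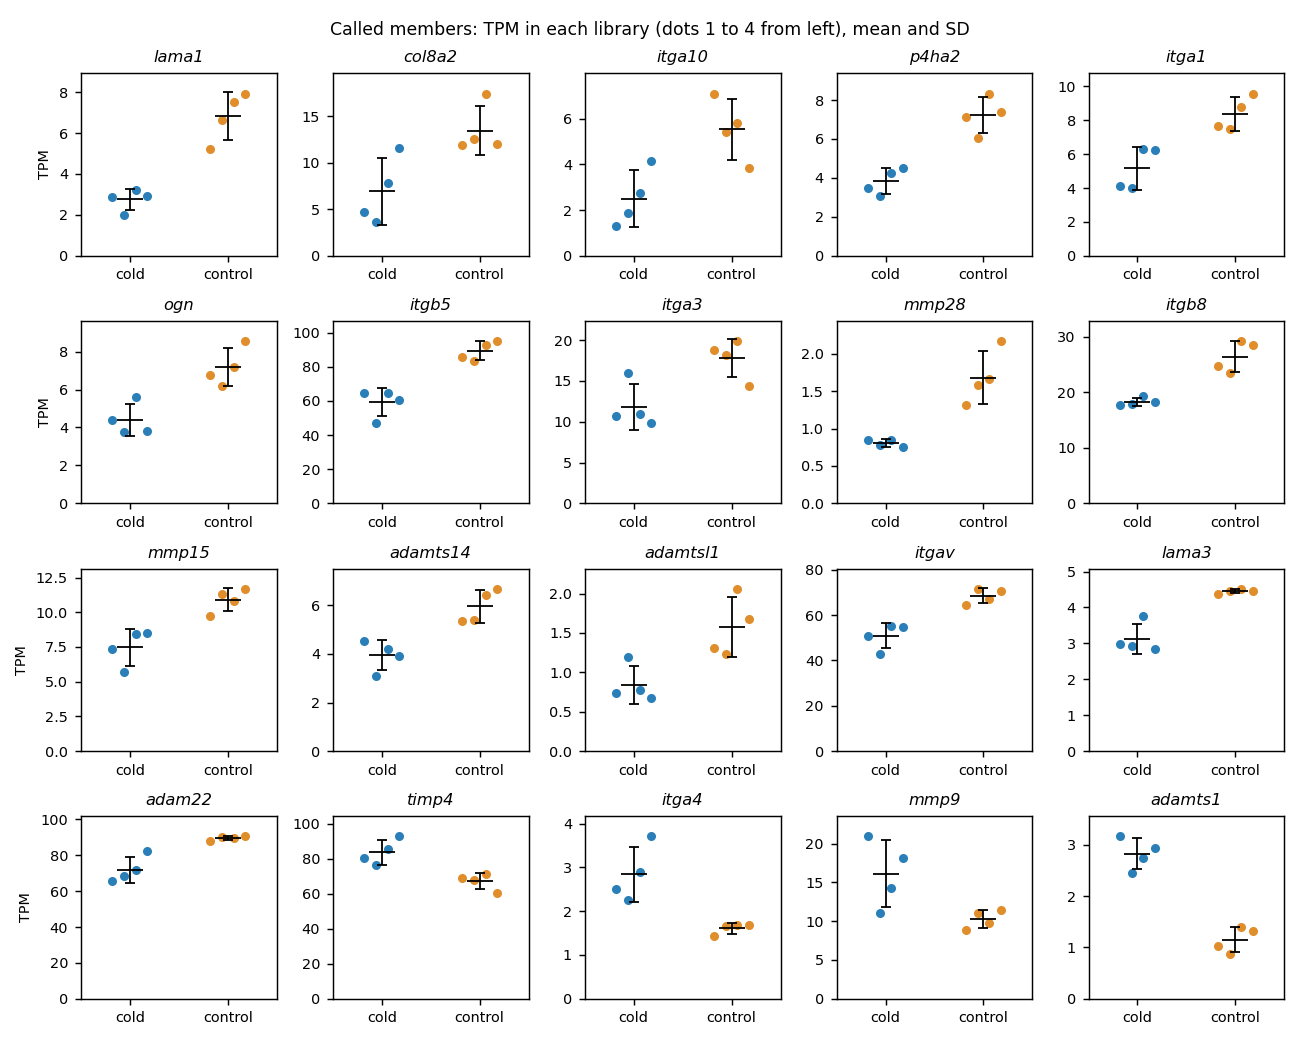
TPM in each library for the 20 called genes, with the 4 cold libraries left of the 4 controls in each panel (dots run from library 1 to 4), and a line with bars for the mean and SD. In 17 of the 20 panels no cold dot overlaps the control range; itga10, itga3 and mmp9 are the exceptions.

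Among the laminins, 2 of 6 tested genes fell and 0 rose, and the median log2 change was -0.38, or -0.30 after scaling. The alpha 1 chain, lama1, a chain of embryonic and pial basement membranes, had the largest decrease of all 83 members. It measured 2.88, 1.98, 3.21 and 2.93 TPM in cold, against 5.24, 6.65, 7.51 and 7.93 TPM in control. The highest cold value lay well under the lowest control value, with means of 2.75 ± 0.533 TPM in cold and 6.83 ± 1.19 TPM in control (SD, n = 4 each) and a log2 change of -1.06 ± 0.15 (limma adjusted p = 0.000939).

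The alpha 3 chain, lama3, was at 2.99, 2.93, 3.75 and 2.84 TPM in cold, against 4.37, 4.47, 4.52 and 4.46 TPM in control. The controls spanned a narrow range above all cold libraries (log2 change -0.41 ± 0.10, limma adjusted p = 0.0132), and the call was lost without control 4 and cold 2, at 0.0566. The vascular chain lama4 averaged 6.49 ± 0.541 TPM in cold and 7.64 ± 1.24 TPM in control and was not called. The shared gamma 1 chain, lamc1, was at 5.45, 5.53, 6.33 and 7.05 TPM in cold, against 6.71, 6.65, 10.5 and 10.1 TPM in control. Its groups overlapped through cold 4, and its log2 change of -0.40 ± 0.16 missed the threshold (limma adjusted p = 0.0817). The alpha 2 chain, lama2, known from muscle and brain vessels, was the only 1 of these 6 laminins with a positive change, 0.22 ± 0.14. It was not called. Laminin copies outside the name pattern are given below.

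Few collagens were called. Of 17 collagen genes tested, 1 fell and 0 rose, which is 5.88%. Their median log2 change was -0.21, near the -0.25 of the integrins, or -0.14 after scaling. The uncalled collagen col24a1 had an estimate as negative as those of called integrins, at -0.57 ± 0.40, but spread widely among libraries. For col13a1, at -0.55 ± 0.57, the estimate rested on control 4. Without control 4 that gene did not meet the minimum. The gene called, col8a2, encodes a short-chain collagen of vessel walls and of the corneal endothelial membrane. It was at 4.73, 3.61, 7.85 and 11.6 TPM in cold, against 11.9, 12.6, 17.5 and 12.01 TPM in control. The groups came close without overlapping, cold 4 lying just under control 1. Its log2 change was -0.96 ± 0.29 (limma adjusted p = 0.0298), and the call was lost without any of cold 1, cold 2, control 2 or control 3, at adjusted p of 0.0752, 0.0581, 0.0568 and 0.0791. Without control 4 and cold 2 together it was 0.0784.

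Type IV collagen, which forms the network of basement membranes, was not called for any of the 4 chains among the members. The gene col4a1 was at 20.4, 19.4, 25.0 and 26.9 TPM in cold, against 19.1, 22.2, 28.3 and 28.6 TPM in control (log2 change -0.09 ± 0.15, limma adjusted p = 0.678). Its partner col4a2 was at 26.1, 22.8, 30.6 and 30.9 TPM in cold, against 21.1, 22.1, 28.9 and 28.4 TPM in control (log2 change 0.13 ± 0.13, limma adjusted p = 0.474). In both genes the groups overlapped over most of their range, and the differences among libraries of a group were larger than those between groups.

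The products of col4a1 and col4a2 assemble into the same trimer, and the genes are neighbours in the reference annotation. The ratio of col4a2 to col4a1 was 1.28, 1.18, 1.22 and 1.15 in cold, against 1.10, 0.996, 1.02 and 0.996 in control. All 4 cold ratios lay above all 4 control ratios. The ratios were chosen after the values had been seen and were given no test. The other linked pair, col4a5 and col4a6, showed no such separation: the ratio of col4a6 to col4a5 was 0.804 to 1.07 in cold and 0.83 to 1.38 in control.

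**Figure D3:**
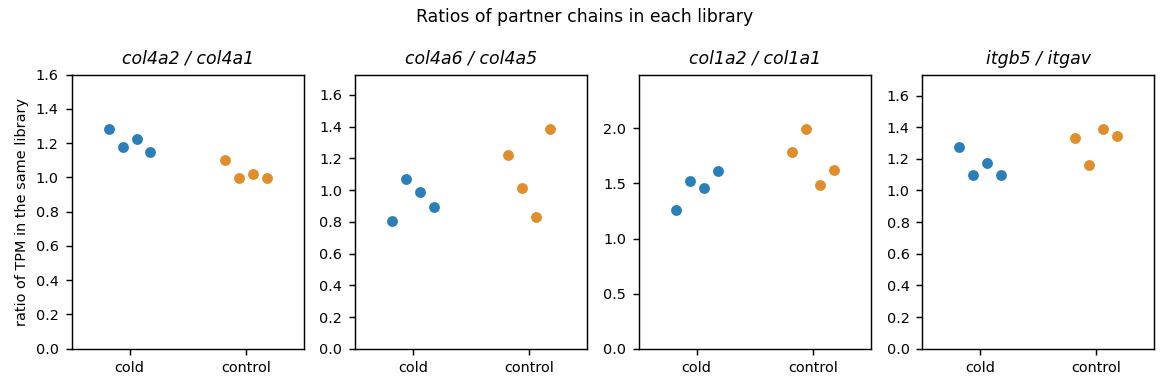
Ratio of TPM between partner genes in each library, with dots for libraries 1 to 4 of cold (left) and control (right) and no test. The ratio of col4a2 to col4a1 is 1.15 to 1.28 in the cold libraries and 0.996 to 1.10 in the controls, while the other ratios overlap.

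The fibrillar collagens, which form the fibres of connective tissue, were rare in this tissue and unequal among controls. The main pair, col1a1 and col1a2, encodes type I collagen. The gene col1a1 was at 2.66, 1.91, 2.62 and 2.23 TPM in cold, against 1.68, 1.35, 4.56 and 5.47 TPM in control (limma adjusted p = 0.637). The gene col1a2 was at 3.35, 2.92, 3.82 and 3.61 TPM in cold, against 3.003, 2.69, 6.76 and 8.85 TPM in control (limma adjusted p = 0.341). In both, control 3 and control 4 were high, while control 1 and control 2 lay within or below the cold range. Their ratio, col1a2 over col1a1, was 1.26 to 1.61 in cold and 1.48 to 1.99 in control. The sum of the 6 fibrillar collagen rows caught by the name pattern, with col5a3 and col27a1 under the minimum included, showed the same split. It was 9.29, 7.92, 13.0 and 8.68 TPM in cold, against 9.93, 8.29, 21.7 and 19.0 TPM in control. None of the 4 tested genes was called, and all 4 had negative changes, the median being -0.40. Among them col11a1 met the minimum in controls alone, which favoured a lower level in cold. Of 6 tested fibrillar copies outside the name pattern 0 were called, and 3 had negative and 3 positive changes, with a median of 0.003. The copies, rows under the minimum included, summed on average to 17.1 TPM in cold and 16.5 TPM in control. The gene col24a1 ranged from 1.12 to 5.26 TPM in cold and from 2.48 to 8.70 TPM in control (limma adjusted p = 0.299).

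Of the 8 remaining collagens none was called. The most abundant was col25a1, a transmembrane collagen made by neurons in mammals, with 33.1, 25.5, 33.5 and 38.6 TPM in cold, against 39.2, 42.8, 37.3 and 39.4 TPM in control. Only cold 4 reached into the control range (log2 change -0.28 ± 0.11, limma adjusted p = 0.078), and without that library the gene was called at 0.0269. The second, col23a1, also a transmembrane collagen, was at 9.47, 6.30, 9.69 and 7.73 TPM in cold, against 6.23, 5.69, 6.80 and 7.42 TPM in control. It leaned the other way, at 0.29 ± 0.14 (limma adjusted p = 0.13). It was called at 0.0312 without cold 2 and at 0.0267 without control 4 and cold 2 together. For col13a1 a single library carried the difference: control 4 had 9.65 TPM, and the other 7 libraries lay between 0.405 and 1.002 TPM.

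Collagen chains are hydroxylated on prolines and lysines in the endoplasmic reticulum before they fold, and lysyl oxidases crosslink them outside the cell. Of 4 such enzymes tested, 1 fell and 0 rose. The prolyl hydroxylase subunit p4ha2 was at 3.48, 3.07, 4.24 and 4.52 TPM in cold, against 7.11, 6.05, 8.33 and 7.38 TPM in control. All cold libraries lay below all controls, with means of 3.83 ± 0.670 TPM in cold and 7.22 ± 0.937 TPM in control (log2 change -0.77 ± 0.13, limma adjusted p = 0.00211). The lysyl hydroxylase plod2 was at 9.94, 14.2, 9.72 and 7.39 TPM in cold, against 11.9, 13.4, 12.2 and 16.2 TPM in control. Cold 2 alone lay inside the control range, and the log2 change of -0.38 ± 0.17 was not called (limma adjusted p = 0.121). It was called without that library, at 0.0202, and without control 4 and cold 2 together, at 0.035. The paralogue p4ha1 averaged 3.54 ± 0.657 TPM in cold and 3.98 ± 0.454 TPM in control and was not called. A more abundant copy outside the name pattern, p4ha1a, averaged 15.7 ± 0.992 TPM in cold and 19.6 ± 2.47 TPM in control. It was called lower (log2 change -0.30, limma adjusted p = 0.0362), but lost the call after scaling, at 0.112. Only 3 of the 8 fits that left out a library kept it.

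The metalloproteinases and their inhibitors moved in both directions: of 9 tested, 2 rose and 2 fell. The inhibitor timp4 was at 80.3, 76.6, 85.5 and 92.8 TPM in cold, against 68.8, 68.1, 71.3 and 60.6 TPM in control. Every cold library exceeded every control, by a modest margin (log2 change 0.31 ± 0.07, limma adjusted p = 0.0109). The more abundant inhibitor timp2 was at 149, 130, 98.7 and 123 TPM in cold, against 116, 126, 152 and 168 TPM in control, and was not called (log2 change -0.16 ± 0.15, limma adjusted p = 0.409). The ratio of timp4 to timp2 was 0.538 to 0.866 in cold and 0.361 to 0.590 in control, with a small overlap.

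The gelatinase gene mmp9, whose product cuts denatured collagen and, in mammals, acts in synaptic remodelling and leukocyte migration, was at 20.9, 11.1, 14.3 and 18.2 TPM in cold, against 8.88, 11.01, 9.76 and 11.5 TPM in control. Cold 2 lay inside the control range, and the other 3 cold libraries lay above it. The log2 change was 0.57 ± 0.18 (limma adjusted p = 0.0324), and the call was among the least stable: it was lost without cold 1, cold 4, control 1, control 2 or control 3, at adjusted p of 0.0712, 0.0783, 0.0814, 0.0542 and 0.0743. It was also lost with no low-value filter, at 0.0508. Without control 4 and cold 2 together it was kept, with a log2 change of 0.78 and an adjusted p of 0.00885. The other gelatinase, mmp2, averaged 25.7 ± 1.52 TPM in cold and 23.4 ± 4.22 TPM in control and was not called.

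The membrane-bound mmp15 was at 7.32, 5.68, 8.43 and 8.54 TPM in cold, against 9.77, 11.3, 10.8 and 11.7 TPM in control, with no overlap (log2 change -0.50 ± 0.12, limma adjusted p = 0.0129). A copy outside the name pattern, mmp15a, was not called and leaned the other way. It averaged 8.36 ± 1.38 TPM in cold and 7.52 ± 0.709 TPM in control, with overlapping groups. The secreted mmp28, or epilysin, was at 0.852, 0.787, 0.849 and 0.750 TPM in cold, against 1.31, 1.58, 1.66 and 2.17 TPM in control. The groups were apart, but the gene met the minimum in controls alone, so the minimum itself favoured a lower level in cold (log2 change -0.56 ± 0.14, limma adjusted p = 0.0136). Its call was lost without control 4 and cold 2, at 0.0592. The remaining mmp19, mmp23b and mmp24 had log2 changes of -0.07 to 0.07 and were not called.

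ADAM proteins carry a metalloprotease and a disintegrin domain, and of 8 tested 1 fell and 0 rose. The gene called, adam22, encodes a neuronal member without protease activity that serves as a receptor for the secreted protein LGI1 at synapses. It was at 65.6, 68.5, 71.7 and 82.2 TPM in cold, against 88.2, 90.2, 89.9 and 90.5 TPM in control. The controls were nearly equal and lay above every cold library (log2 change -0.32 ± 0.07, limma adjusted p = 0.00721). Its close relative adam23 was at 102, 88.5, 123 and 114 TPM in cold, against 114, 104, 117 and 102 TPM in control, with overlapping groups and a log2 change of -0.04 ± 0.10 (limma adjusted p = 0.78). The sheddase adam10, which cuts Notch receptors, averaged 20.6 ± 3.76 TPM in cold and 22.9 ± 2.94 TPM in control and was not called. For adam8, a leukocyte member, cold 2 had 9.25 TPM and the other 7 libraries lay between 0.750 and 1.29 TPM.

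Among the secreted ADAMTS proteases and the related ADAMTSL proteins, 1 of 11 rose and 2 fell. The largest increase of all 83 members was that of adamts1, whose product cuts the proteoglycans aggrecan and versican. It was at 3.16, 2.46, 2.73 and 2.94 TPM in cold, against 1.02, 0.879, 1.40 and 1.31 TPM in control. The lowest cold value exceeded the highest control value, and the means were 2.83 ± 0.300 TPM in cold and 1.15 ± 0.244 TPM in control (log2 change 0.83 ± 0.13, limma adjusted p = 0.00151).

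Its neighbour in the reference annotation, adamts5, which encodes another aggrecan-cutting enzyme, was at 5.76, 6.51, 5.34 and 5.64 TPM in cold, against 2.46, 3.69, 4.93 and 6.94 TPM in control. The cold libraries were close together, while the controls spread widely and control 4 lay above them all. It was not called (log2 change 0.37 ± 0.23, limma adjusted p = 0.23), except without control 4, at 0.0424.

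The procollagen-trimming protease adamts14 was at 4.53, 3.11, 4.21 and 3.93 TPM in cold, against 5.36, 5.40, 6.43 and 6.68 TPM in control, with no overlap (log2 change -0.50 ± 0.12, limma adjusted p = 0.0126). That call was lost without control 4 and cold 2, at 0.0529. The protease-like adamtsl1 was at 0.735, 1.20, 0.772 and 0.669 TPM in cold, against 1.31, 1.24, 2.06 and 1.68 TPM in control. It met the minimum in controls alone, and its log2 change of -0.48 ± 0.16 (limma adjusted p = 0.0456) kept its call in only 1 of 8 fits that left out a library and lost it after scaling, at 0.0716, and without control 4 and cold 2, at 0.0642. The highest in this group, adamtsl5, ranged from 11.9 to 43.8 TPM in cold and from 13.4 to 28.6 TPM in control and was not called.

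Of 5 tested genes for proteoglycans, link proteins and tenascins 1 fell and 0 rose. They were dcn, ogn, hapln3, hapln4 and tnr, and the brain lecticans are not among them. The small leucine-rich proteoglycan ogn, or osteoglycin, was at 4.39, 3.77, 5.61 and 3.81 TPM in cold, against 6.77, 6.18, 7.17 and 8.54 TPM in control, with no overlap (log2 change -0.60 ± 0.14, limma adjusted p = 0.00828). The link protein hapln4, which in mammals sits in perineuronal nets, was at 83.8, 48.7, 89.5 and 88.9 TPM in cold, against 64.3, 88.2, 72.1 and 71.9 TPM in control. Apart from cold 2 the cold libraries were among the highest, but the groups overlapped (log2 change 0.03 ± 0.19, limma adjusted p = 0.904). Tenascin-R, tnr, a glycoprotein of the same nets, averaged 23.6 ± 1.18 TPM in cold and 27.6 ± 4.35 TPM in control and was not called. Decorin, dcn, a collagen-binding proteoglycan of fibroblasts, averaged 24.8 ± 3.92 TPM in cold and 30.4 ± 5.74 TPM in control and was not called either.

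Of the elastic fibre and calcium-binding glycoproteins none of 4 was called. The most abundant member of all, sparc, was at 252, 264, 236 and 230 TPM in cold, against 214, 246, 296 and 293 TPM in control, with overlapping groups (log2 change -0.08 ± 0.10, limma adjusted p = 0.576). The microfibril gene fbn1 was at 6.25, 4.64, 6.47 and 8.53 TPM in cold, against 3.89, 3.67, 4.71 and 5.11 TPM in control. Cold 2 lay inside the control range and the other 3 above it, and the log2 change of 0.47 ± 0.16 just missed the threshold (limma adjusted p = 0.0524). It was called at 0.0246 after scaling, at 0.0159 without cold 2 and at 0.0156 without control 4 and cold 2 together. The fibulin fbln1 was at 2.50, 10.7, 3.51 and 3.39 TPM in cold, against 4.63, 9.15, 9.63 and 14.2 TPM in control. Here cold 2 stood within the control range and the other cold libraries below it, so the log2 change of -0.88 ± 0.41 (limma adjusted p = 0.122) became -1.26 without cold 2, at an adjusted p of 0.0146. Without control 4 and cold 2 together the log2 change of fbln1 was -1.04, at an adjusted p of 0.022. None of the 3 members that name other proteins was called. Of these, col4a3bp averaged 41.9 ± 2.70 TPM in cold and 43.6 ± 3.52 TPM in control.

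Fish carry many of these genes in more copies, and the files list some of them under locus numbers that the name pattern does not catch. Through the symbols of the reference annotation 86 such rows matched the same families, and 67 met the minimum. They were matched after the values of the members had been seen. Of the 67, 4 were called higher in cold and 11 lower, with a median log2 change of -0.05, and after scaling 6 were called higher and 6 lower. That is 5.97% higher and 16.4% lower, where the shares of all genes tested were 13.0% and 23.6%.

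The metalloproteinases moved most among them, 3 of 12 being higher and 3 lower. The membrane-type copy mmp16b measured 33.5, 37.2, 34.0 and 40.8 TPM in cold, against 63.1, 61.9, 59.1 and 59.6 TPM in control. The groups were far apart relative to their spread (log2 change -0.73, limma adjusted p = 0.000119), and mmp16a and mmp17a were also lower. The collagenase copy mmp13a measured 4.29, 2.66, 1.68 and 4.89 TPM in cold, against 0.511, 0.595, 0.884 and 0.797 TPM in control. All cold libraries exceeded all controls (log2 change 1.31, limma adjusted p = 0.00348), but mmp13a met the minimum in cold alone, which favoured a higher level there. The membrane-type copy mmp14b, at 13.0 ± 1.80 TPM in cold and 8.19 ± 0.816 TPM in control, was higher as well. The call of mmp14a, higher at an adjusted p of 0.0406 in limma, was kept in only 1 of the 8 fits that left out a library, where its adjusted p reached 0.0985.

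The sheddase adam17a averaged 41.6 ± 2.59 TPM in cold and 52.9 ± 2.74 TPM in control (limma adjusted p = 0.00333). The chondroitin sulphate proteoglycans vcanb and ncanb were lower, at adjusted p of 0.023 and 0.0358 in limma. Both lost their calls after scaling, and vcanb kept its call in 5 and ncanb in 2 of the 8 fits that left out a library. The more abundant lectican bcan averaged 106.8 ± 22.4 TPM in cold and 119.9 ± 46.1 TPM in control and was not called. Of 10 collagens outside the fibrillar and network classes 3 were called lower: col26a1, at 1.42 ± 0.258 TPM in cold and 2.37 ± 0.188 TPM in control (log2 change -0.48, limma adjusted p = 0.0163), the hemidesmosome collagen copy col17a1b (log2 change -0.82, limma adjusted p = 0.0328) and the cartilage collagen col9a2 (log2 change -0.43, limma adjusted p = 0.0352). The call of col26a1 was kept in all 8 fits that left out a library, and those of col17a1b and col9a2 in 3 each. After scaling col26a1 kept its call, at a limma adjusted p of 0.0309. The calls of col17a1b and col9a2 were lost, at 0.0521 and 0.0827. A further type IV chain, col4a3, averaged 1.76 ± 0.160 TPM in cold and 1.66 ± 0.138 TPM in control and was not called, and col4a4 lay under the minimum. None of the 5 laminin copies tested was called: 3 had positive and 2 negative log2 changes, with a median of 0.09. Their summed level, rows under the minimum included, averaged 39.3 TPM in cold and 37.5 TPM in control. None of the 3 integrin copies was called either, and all 3 had negative log2 changes.

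Genes that act with these families but lie outside the name pattern were counted in 5 lists. Beside them, the shares of all genes tested were 23.6% called lower and 13.0% higher, or 16.8% and 18.5% after scaling. The adhesion proteins that link integrins to actin had the largest share of calls, 9 of 19 lower and 2 higher, and 6 lower and 3 higher after scaling. The talin copy tln2a, whose product binds the tails of integrin beta chains, averaged 14.6 ± 0.318 TPM in cold and 22.3 ± 1.998 TPM in control (log2 change -0.58, limma adjusted p = 0.000497). Zyxin, zyx, a focal adhesion protein, averaged 21.3 ± 1.52 TPM in cold and 30.8 ± 1.45 TPM in control (log2 change -0.51, limma adjusted p = 0.000652). Higher were dag1, the laminin receptor dystroglycan, at 25.5 ± 2.10 TPM in cold and 19.8 ± 2.39 TPM in control, and the adaptor pxn, paxillin, whose groups overlapped and whose call was kept in only 2 of the 8 fits that left out a library.

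Of 21 genes for collagen folding and trimming, 4 fell and 1 rose, and after scaling 2 were lower and 4 higher. The collagen chaperone serpinh1, which helps procollagen fold, measured 6.51, 6.75, 6.71 and 5.28 TPM in cold, against 23.5, 21.1, 27.1 and 31.8 TPM in control (log2 change -1.87, limma adjusted p = 3.03e-05). Its copy serpinh1a averaged 2.88 ± 0.787 TPM in cold and 6.04 ± 1.30 TPM in control. Both chaperone genes were thus far lower, while the collagens they serve were mostly not called. The COPII coat gene sec23a, which carries large cargo out of the endoplasmic reticulum, was the one that rose.

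Among 39 other matrix glycoproteins and basement membrane genes, 7 fell and 3 rose, and after scaling 2 were lower and 3 higher. The matricellular genes cyr61 and ctgf rose, at 42.8 ± 7.005 TPM in cold and 11.99 ± 1.60 TPM in control for cyr61 and a log2 change of 0.98 for ctgf (limma adjusted p = 0.000409). The basement membrane linker nid2 rose too, at 9.24, 5.43, 8.28 and 8.06 TPM in cold, against 2.77, 2.81, 4.15 and 4.58 TPM in control. All cold values of nid2 lay above all controls, the reverse of lama1. The lower genes of lowest p were thbs4a, a thrombospondin, and emilin2, an elastic fibre glycoprotein whose call was kept in 4 of the 8 fits that left out a library.

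Of 29 enzymes that build or cut glycosaminoglycans, 7 fell and 2 rose, and after scaling 3 were lower and 3 higher. The 7 that fell are 24.1%, near the 23.6% of all genes tested. The chondroitin polymerase gene chpf2 measured 15.6, 18.2, 18.6 and 17.7 TPM in cold, against 8.81, 8.09, 9.18 and 9.22 TPM in control (log2 change 0.91, limma adjusted p = 7.94e-05), and chsy1, of the same pathway, rose as well. Both had no overlap between groups. Among the lower enzymes were ext2, which extends heparan sulphate, at 41.6 ± 1.503 TPM in cold and 52.5 ± 1.07 TPM in control, and the sulphotransferase chst12. A more abundant copy, chst12a, leaned the other way, at 26.46 ± 0.888 TPM in cold and 23.35 ± 1.741 TPM in control, with no overlap. It was not called (log2 change 0.18, limma adjusted p = 0.069), but was called higher after scaling, at 0.0101. Of 17 TGF-beta ligands, receptors and effectors, 5 fell and 2 rose, and after scaling 3 were lower and 2 higher. The effectors smad3a and smad4a went opposite ways, smad3a averaging 22.3 ± 1.98 TPM in cold and 17.98 ± 0.853 TPM in control, and smad4a 16.1 ± 1.15 TPM in cold and 20.3 ± 0.728 TPM in control. The receptor gene tgfbr1b rose and tgfbr3 fell, and the call of tgfbr1b was kept in 4 of the 8 fits that left out a library.

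**Figure D4:**
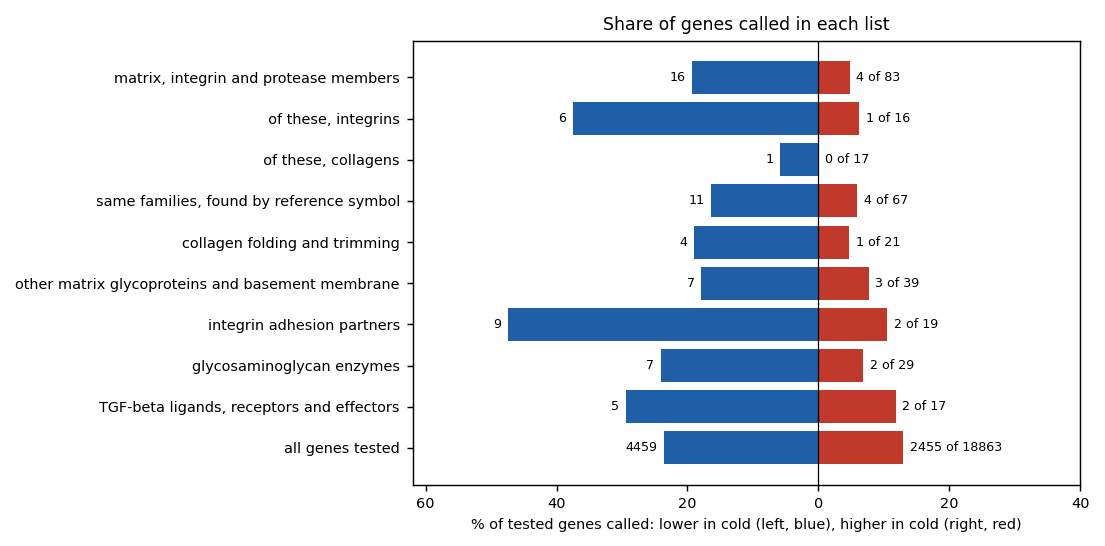
Percentage of tested genes called lower in cold (bars to the left) and higher in cold (bars to the right) for the members, their integrins and collagens, the copies found by reference symbol, 5 lists of related genes and all genes tested; the labels give the numbers called. Integrins, with 6 of 16 lower, and integrin adhesion partners, with 9 of 19 lower, have the longest left bars.

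Markers of the cells that make much of this matrix were also lower in part. For these lists, too, the shares of all genes tested were 23.6% called lower and 13.0% higher. Of 11 fibroblast and meninges markers 5 fell and 0 rose, and 3 were lower after scaling. Their summed level was 109.9 to 142 TPM in cold and 131 to 167 TPM in control. The most abundant were the transporters slc13a4, which was not called, and slc6a13, which averaged 17.2 ± 2.62 TPM in cold and 26.3 ± 0.678 TPM in control. Of 10 pericyte and vascular smooth muscle markers 5 fell and 0 rose, among the fallen pdgfrb and notch3, while the most abundant, rgs5a and tagln, were not called. After scaling 4 were lower, and the sums of the list, rows under the minimum included, were 191 to 223 TPM in cold and 216 to 270 TPM in control. The list as first set also held tagln3, which was dropped after the values had been seen. With it the sums did not overlap, at 271 to 338 TPM in cold and 348 to 416 TPM in control. The endothelial list of 12 had 5 lower and 1 higher, egfl7, or 4 lower and 1 higher after scaling. Its most abundant gene, cldn5, was not called, and its sums were 219 to 300.2 TPM in cold and 247 to 329 TPM in control. These markers were lower beside lama1, lama3, ogn and the integrins called lower, and their part in those results was not tested. Every marker tested in these 3 lists was above 0 TPM in the mean of both groups.

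Markers of microglia and macrophages were mostly lower. Of the members linked above to leukocytes, itga4 and mmp9 were called higher and adam8 was not called (limma adjusted p = 0.421). The call of mmp9 was kept in only 3 of the 8 fits that left out a library. Of 6 microglia and macrophage markers 5 fell and 0 rose, or 4 and 0 after scaling. Their sums were 56.9 to 74.1 TPM in cold and 91.2 to 142 TPM in control. The list as first set also held aif1l, which was called higher and was dropped after the values had been seen. With it the sums overlapped, at 175.2 to 201.5 TPM in cold and 201.0 to 249.8 TPM in control. The most abundant of the 6, c1qb and ptprc, were both lower, although c1qb kept its call in only 3 of the 8 fits that left out a library, and the part of these cells in the results for itga4 and mmp9 was not tested. Neuron markers had 3 of 14 lower, which is 21.4%, where the share of all genes was 23.6%. After scaling it was again 3, where the share of all genes was 16.8%. All 14 had negative log2 changes, where 60.1% of all genes tested did. Neuron markers summed to 6333 to 7040 TPM in cold and 6822 to 7408 TPM in control. Radial glia had 3 of 9 lower and oligodendrocytes 3 of 10. The most abundant markers of these 3 cell types, snap25 and stmn2a, s100b and fabp7, and mbpa and mpz, were not called. Red blood cell markers had 0 of 2 called. Their sums, rows under the minimum included, ranged from 23.0 to 112 TPM in cold and from 14.5 to 89.4 TPM in control. Of 5 muscle, cartilage and bone markers 1 rose, the muscle creatine kinase ckma, at 3.97 ± 0.453 TPM in cold and 0.873 ± 0.992 TPM in control. It met the minimum in cold alone, which favoured a higher level there, and the most abundant of the list, ckmb and ucmab, were not called. The markers slc4a1b of red cells and ucma of cartilage were listed at 0 in all controls.

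**Figure D5:**
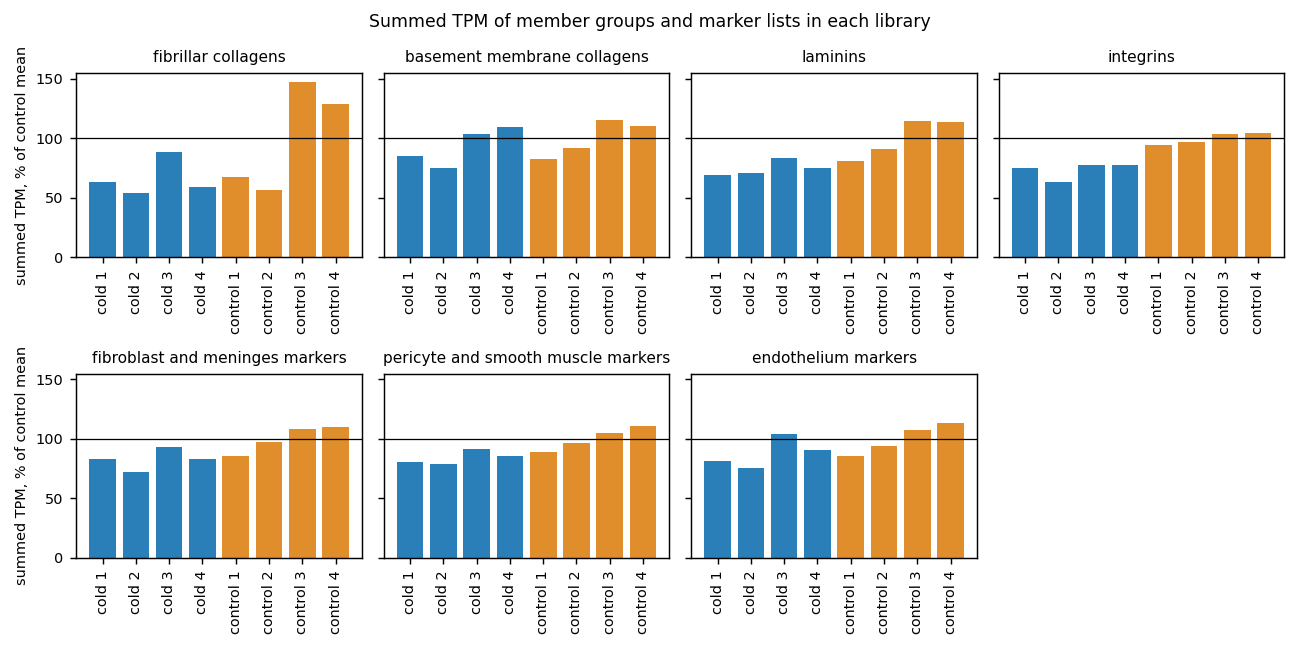
Summed TPM of 4 member groups and 3 marker lists in each library, rows under the minimum included, as a percentage of the control mean (line at 100), with cold bars left of control bars. The pericyte list is shown without tagln3. Integrin sums are lower in every cold library, at 63.6% to 77.7% of the control mean, whereas fibrillar collagen sums are high in control 3 and control 4 alone.

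The libraries of a group differed among themselves in these genes. Of the 4 controls, control 4 was the highest for 53.0% of the members and control 3 for 33.7%, against 7.23% for control 1 and 6.02% for control 2. Over all genes tested the shares were 28.0% for control 4, 22.9% for control 3, 28.4% for control 1 and 20.6% for control 2. Of the cold libraries, cold 2 was the lowest for 44.6% of the members and for 31.8% of all genes. The sums of the fibroblast and endothelial markers, and of the pericyte markers without tagln3, were also highest in control 4 and lowest in cold 2 within their groups. With tagln3 the pericyte sum was highest in control 3, at 416 TPM, against 370.5 TPM in control 4. Without control 4 and cold 2 together, 6 of 80 members tested were called higher and 12 lower, where 29.4% of all genes tested were called.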

How the data were processed

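The authors deposited 1 table per library with a TPM value for each of 29533 genes; TPM is relative to the library total and to gene length, and the deposited columns all have the same sum. The submitters' processing notes name HISAT2. The counting tool, genome build, annotation and strand setting were not given in the sources used here, so no coordinates are printed, and overlapping or near-identical gene copies may share reads. RNA was extracted with TRIzol, enriched with poly(dT) beads and made into TruSeq libraries, per the labels' protocols.

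TPM were tested as log2(TPM + 1) with limma 3.58.1 in R 4.3.3 (mean-variance trend, two-sided, no covariates, 8 libraries), for genes with a group mean of at least 1 TPM in cold or control, with Benjamini-Hochberg adjustment and a threshold of 0.05. The fit was also run on simulated data in which genes varied independently and few were changed. That setting differs from these libraries, so it gives no error rate for them. The members, lists and tests were chosen with earlier results of these data known. Named genes are the 2 most abundant members of each role group, up to 3 called members of lowest p per direction and role group, every called integrin, and every called member with a log2 change of at least 1; from the related lists, up to 2 of lowest p per direction; from marker lists, the 2 most abundant. Others named were chosen after their values were seen. Locus numbers were paired with symbols through a RefSeq table (assembly O_niloticus_UMD_NMBU), which held 19368 of 19370 of them, 6153 with a symbol; 57 of the 83 members' identifiers are symbols there. Depth is unknown, so no counting interval is given.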

Additional observations from a re-analysis of the deposited data

Results flagged for a closer look

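Each of the 83 members was checked in each group of 4 libraries for a single library far from the other 3 (Dixon's criterion). Of 166 such groups 15 had one, where chance gives about 5.0%. By library, 5 were in cold 2, 3 each in control 3 and control 4, 2 in control 1 and 1 each in cold 1 and cold 3. High values in the cold group were those of cold 2 for adam8, at 9.25 TPM, fbln1, at 10.7 TPM, itgb4, at 7.31 TPM, and col9a3, at 7.19 TPM, and that of cold 3 for lama3, at 3.75 TPM. Low values in the cold group were those of cold 2 for hapln4, at 48.7 TPM, and of cold 1 for col6a1, at 2.57 TPM. High values in the control group were those of control 4 for col13a1, at 9.65 TPM, lama4, at 9.49 TPM, and col16a1, at 6.39 TPM, and those of control 3 for col8a2, at 17.5 TPM, itgb6, at 3.85 TPM, and itgb3, at 3.07 TPM. Low values in the control group were those of control 1 for col4a5, at 2.25 TPM, and itga4, at 1.43 TPM. Of these genes lama3, col8a2 and itga4 were called. Leaving out cold 3 kept the call for lama3 and leaving out control 1 kept it for itga4, while leaving out control 3 ended it for col8a2.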

How the results depend on the processing

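The 4 higher and 16 lower calls among members stayed close in number under most alternatives. A minimum of 5 TPM left 46 members tested, with 2 higher and 13 lower. No low-value filter gave 3 and 16, a pseudocount of 0.1 TPM 4 and 17, scaling by the median of ratios 5 and 15, and robust empirical Bayes 4 and 16. The share of all genes tested that was called was 36.7% in the main fit and 42.8% at the 5 TPM minimum. It was 23.9% with no filter, 36.5% with the pseudocount, 35.3% after scaling and 36.6% with robust empirical Bayes. Leaving out each library in turn gave 3 to 6 higher and 13 to 17 lower, where 30.7% to 33.9% of all genes tested were called. Whether the replicate numbers pair the libraries is not given in the labels. Over all genes tested, deviations of same-numbered libraries from their group means correlated at -0.00834, -0.146, 0.0542 and -0.226, which cannot settle it. The fit with the replicate block gave 4 higher and 16 lower, where 29.9% of all genes tested were called. With that block itga10, mmp9 and adamtsl1 were not called, at adjusted p of 0.0625, 0.0623 and 0.107 in limma, while col24a1, lamc1 and fbn1 were, at 0.0266, 0.0412 and 0.0266. Of 594 values of the 40 named members under the alternatives, 555 kept their side of the threshold, 29 lost a call, 10 gained one and 0 calls were reversed. Estimates near 0 of uncalled members could change sign: that of col4a1 was -0.0891 in the main fit and 0.0054 after scaling. Of the 20 called members 15 kept call and direction in all 8 fits that left out a library, and 3 higher and 8 lower ones in every alternative other than the 5 TPM minimum. After scaling 4 of the higher and 15 of the lower calls were kept and fbn1 was added. Without a filter 4 of the 18 rows under the minimum were called, adamts16 higher and adamts13, adamts18 and col8a1 lower. In that fit 23.9% of all genes tested were called. Dropping tagln3, aif1l and hpse2, which name other genes, from the lists was chosen after seeing the data. With them the microglia list had 1 higher and 5 lower and the pericyte list 5 of 11 lower. The drop also changed the sums of both lists, as given above. The causes of the lost calls were not tested. With 4 libraries a group and no read counts, members at 1 or 2 TPM cannot be given a counting error.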
